A study of Mus musculus with 3 samples.

Results

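The 80 genes described here carry the names of cytosolic ribosomal proteins of the mouse, as measured in wells of wild-type mouse embryonic fibroblasts (MEF). RefSeq calls 2 of them pseudogenes. They were chosen by name: gene symbols of the form Rpl or Rps with a number, together with Rplp0, Rplp1, Rplp2 and Rpsa, leaving out Rps6 kinases and names of pseudogenes with "-ps". A mean of at least 10 counts-per-million (CPM) units over 30 media wells was also required. Of 20471 gene rows, 86 matched the name and 80 of these passed the level. Of the 80, 47 are named for the large (60S) subunit and 33 for the small (40S) subunit. Just inside the level were Rps3a2 at 18.5 CPM, Rpl34 at 41.2 CPM and Rpl15 at 47.7 CPM. Just outside were Rpl29 at 8.35 CPM, Rps6 at 6.02 CPM, Rpl24 at 3.34 CPM and Rps3a3 at 1.60 CPM. The tissue-restricted paralogues Rpl3l and Rpl10l were listed at 0 in all media wells.

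Expression was measured by DRUG-seq2, in which the RNA of each well is barcoded at reverse transcription and the wells of a plate are then pooled into 1 library. The cells of 3 plates were kept for 4 days in the medium named CFAE+8 with a kinase library compound in each well. After wells with under 10% of the median total of their plate were left out, 90 compound wells remained on plate 1, 86 on plate 2 and 41 on plate 3. A further 30 wells of plate 3, called media wells here, are named MEF (4 wells), basal (3), bCFAE (3), bC8FAE (5), bC6FAE[2] (3), bC6FAE[10] (4), bCLFAE (4) and bCSFAE (4). MEF is the name of the cells, and the medium of the wells so named is not given. No label says what the letters and bracketed numbers stand for, so they serve as names only, and bC8FAE was taken from its name as the screening medium without a compound. All groups share the wild-type genotype. No vehicle wells are named, so each class of compounds was set against the other wells of the same plates, with the 5 bC8FAE wells counted among those of plate 3. Nothing states that wells came from separate cultures, so p-values measure the spread between wells, which may be technical. In the class comparisons the wells hold different compounds, so that spread also includes differences between compounds.

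A cytosolic ribosome is built from ribosomal RNA and about equal amounts of each ribosomal protein, and its assembly in the nucleolus needs many biogenesis factors. Messenger RNAs of ribosomal proteins begin with a C followed by a run of pyrimidines, the 5′ terminal oligopyrimidine (TOP) tract. Through this tract and the protein LARP1, the kinase mTORC1 controls their translation and stability. MYC and the RNA polymerase II machinery, whose kinases include CDK7 and CDK9, act on their transcription, and ERK signalling downstream of MEK acts on MYC.

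The start sites below show the tract and its absence, for genes whose levels are described later. They are RefSeq sequences on GRCm38.p6 from 10 bases before the annotated start to 20 bases from it, written 5′ to 3′ on the gene's strand. Capitals mark the longest run of C and T that begins with C, has at least 5 bases and starts within 10 bases of the annotated start.
Rpl27a (chr7:109519185-109519214, plus strand): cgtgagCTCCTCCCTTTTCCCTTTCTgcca
Rpl35 (chr2:39005112-39005141, minus strand): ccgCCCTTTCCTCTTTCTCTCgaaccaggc
Rps27 (chr3:90213629-90213658, minus strand): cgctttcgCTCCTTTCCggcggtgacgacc
Rps12 (chr10:23787190-23787219, minus strand): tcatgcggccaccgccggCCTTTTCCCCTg
Rpl22l1 (chr3:28805498-28805527, plus strand): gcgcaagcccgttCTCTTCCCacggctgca
Rpl39l (chr16:10170218-10170247, plus strand): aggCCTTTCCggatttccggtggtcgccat
Rps3 (chr7:99483690-99483719, minus strand): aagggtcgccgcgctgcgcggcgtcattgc
Rpl4 (chr9:64173377-64173406, plus strand): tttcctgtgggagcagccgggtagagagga
Such a run was present in 36 of the 59 members with a RefSeq promoter entry (61.0%), against 9297 of 27025 genes of all kinds (34.4%). The annotated start need not be the base at which the cells begin transcription, and windows without a run, such as those of Rps3 and Rpl4, show only that these letters lack one.

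Total counts per well were 45416 to 591025 on plate 1 (median 318876.5), 92437 to 1206219 on plate 2 (median 613609) and 222067 to 703918 on plate 3 (median 438680), and 119295 to 726228 in the media wells. The 16 fibroblast markers all had a median above 1 CPM, and their summed level was 3363 to 13037 CPM over the wells. Summed macrophage markers ran from 0 to 641 CPM, epithelial from 0 to 870 CPM, endothelial from 0 to 34.6 CPM and skeletal muscle from 16.0 to 629 CPM. A median above 1 CPM was also found for 4 of 6 macrophage, 3 of 5 epithelial, 1 of 4 endothelial and 3 of 5 skeletal muscle markers. Of the media wells, 2 stood apart in depth: bC8FAE well 4 had 119295 counts and MEF well 3 had 138747. Mitochondrially encoded genes took 1.95% and 1.43% of their counts, against a median of 0.912% over all media wells.

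The 80 genes took a large part of all counts, with a median of 20.4% over the media wells, so their sum is itself part of the scale on which other genes are read. Per length of transcript, the media wells gave Rps27, a zinc-finger protein of the 40S subunit, 20849 CPM per kb, and Rpl41, the smallest ribosomal protein, 16751 CPM per kb. Rpl35 was at 83.7 CPM per kb and Rpl24, outside the set, at 4.90 CPM per kb. Whether counts come only from the 3′ end of a transcript is not given, in which case a level would not scale with length. Many ribosomal protein genes have processed copies elsewhere in the genome, and reads that match several places are often dropped or split. How such reads were counted is not given. Of 81 protein-coding names, 20 shared under 30% of their 50-base stretches with other transcripts and had a median of 3372 CPM. In the 36 that shared 30% to 60% the median was 1624 CPM, and in the 25 that shared 60% or more it was 690 CPM. Across these 81 genes, which are not independent replicates, Spearman's rho between sharing and level was -0.31. Rpl24, Rps6 and Rpl29, which fell under 10 CPM, shared 81.7%, 84.6% and 66.2%. Rps27, at 98.7%, was nonetheless among the highest. Rpl15 and Rpl34, at 47.7 and 41.2 CPM, shared 30.2% and 37.9%. The part of copies in these levels was not tested, and levels of single members are uncertain where copies exist. Fold changes below set the same gene against itself, while the paralogue ratios compare different genes that share unequal amounts. Exons of 19 members overlap a gene on the other strand and 3 overlap one on the same strand, and whether counting used strand is not given. RefSeq calls 2 members pseudogenes, Rps3a2 and Rps4y2, and 30 members host a small nucleolar RNA. All 80 members passed the filter on low counts in every comparison below.

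The share of counts in the 80 genes was similar within a medium and differed between plates. It was 18.8% to 19.0% in the 3 bCFAE wells and 21.5% to 22.2% in the 3 basal wells, which do not overlap. bC6FAE[2] ran from 20.7% to 22.2%, bC6FAE[10] from 19.9% to 20.6%, bCLFAE from 18.9% to 20.7% and bCSFAE from 18.7% to 19.4%. In MEF 3 wells lay between 20.4% and 21.3% and well 3 at 14.7%. In bC8FAE 4 wells lay between 20.5% and 22.2% and well 4 at 13.8%. Both low wells are those of low total and high mitochondrial share, whose part in the low value was not tested. Over compound wells the share was 12.6% to 32.7% on plate 1 (median 24.4%), 12.4% to 28.2% on plate 2 (median 21.0%) and 10.6% to 23.0% on plate 3 (median 20.2%). The 95% Wilson interval of a well's share reached at most 0.410 percentage points to either side. It covers counting error at most. It treats each count as a separate molecule, which is not known of these counts, so it may be too narrow.

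**Figure D1:**
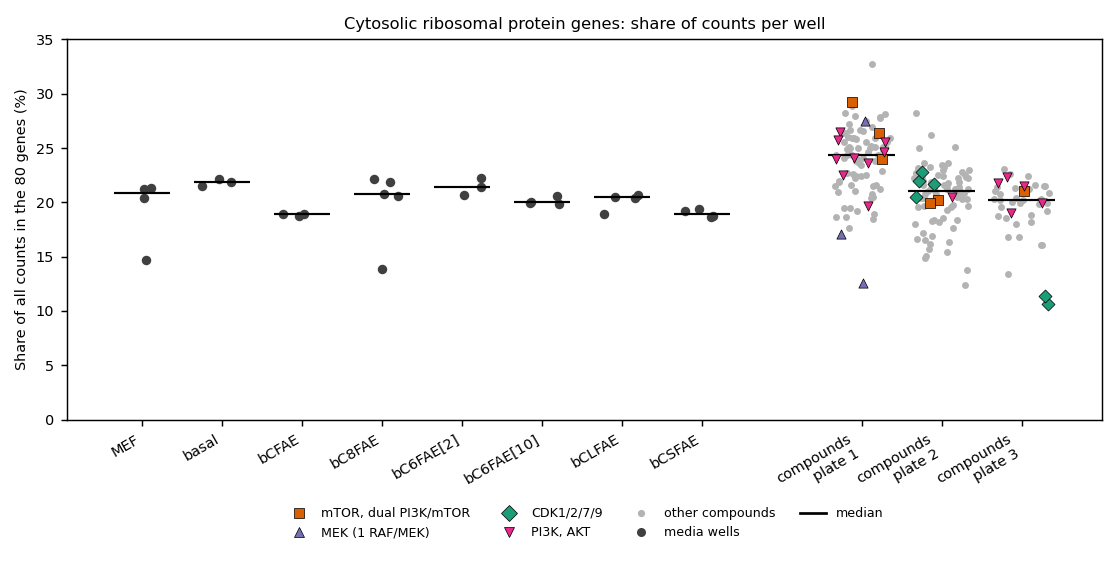
Share of all counts in the 80 cytosolic ribosomal protein genes (vertical axis, percent), per well. Shown are the 8 groups of media wells and the compound wells of 3 plates. Lines are medians and coloured symbols are the target classes compared. The 2 CDK7 inhibitor wells of plate 3 sit at 10.6% and 11.4%, and MEF well 3 and bC8FAE well 4 sit below the rest of their groups.

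bCFAE against basal gave the widest change among the media. In bCFAE 28 of the 80 genes fell and 2 rose (edgeR quasi-likelihood test, Benjamini-Hochberg adjusted p under 0.05). The background was 34.5% of all genes called, 18.2% lower and 16.3% higher, so the members moved mostly down while genes in general moved both ways. The members' median log2 fold change was -0.26, against 0.00 over all genes tested. The small subunit gave 17 of 33 members lower and 1 higher, and the large subunit 11 of 47 lower and 1 higher. The difference between the subunits was not tested.

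Rps21, a protein of the 40S subunit that takes part in the maturation of its RNA, was at 7661, 7925 and 8151 CPM in basal and at 4174, 4295 and 4653 CPM in bCFAE. Every bCFAE well was below every basal well, with a log2 fold change of -0.99 (SE 0.15, adjusted p = 3.3e-07). Rpl39, which lines the exit tunnel for the new protein chain, was at 4442, 4463 and 4711 CPM in basal against 2683, 2959 and 3017 CPM in bCFAE. This was a log2 fold change of -0.79 (SE 0.16, adjusted p = 8.76e-05), again without overlap. Other large falls were those of Rpl9 (-0.73), Rps15 (-0.70), Rpl17 (-0.65), Rps4x (-0.63), Rps19 (-0.63), Rplp1 (-0.60) and Rpl36 (-0.60), in log2 fold change. Rps19 is needed for maturation of the 40S subunit, and Rplp1 belongs to the stalk that recruits elongation factors. With no filter on low counts 14 members fell and 3 rose, and without MEF well 3 and bC8FAE well 4 43 fell and 2 rose.

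Rpl4 and Rps3a1 went the other way. Rpl4, a core protein of the exit tunnel, was at 1359, 1528 and 1788 CPM in basal and at 2424, 2531 and 2571 CPM in bCFAE, a log2 fold change of 0.55 (SE 0.14, adjusted p = 0.00135). Rps3a1, of the 40S platform, was at 117, 130 and 187 CPM in basal and at 205, 259 and 286 CPM in bCFAE, a log2 fold change of 0.68 (SE 0.21, adjusted p = 0.00905). The groups did not overlap for either gene, but the Rps3a1 call was lost without basal well 2 (adjusted p = 0.0695) or bCFAE well 2 (adjusted p = 0.0536). Of 46 measured ribosome biogenesis factors 18 rose, 0 fell and 28 were not called, with a median log2 fold change of 0.57. The difference from the ribosomal proteins was not tested. They included Rrp12 (1.58, SE 0.48), Nop56 (1.31, SE 0.28), a box C/D snoRNP protein, and Bop1 (1.28, SE 0.19), of the PeBoW complex. Among 27 translation factors and other TOP genes 8 rose and 2 fell, and among 65 mitochondrial ribosomal proteins 11 rose and 5 fell. Of 15 regulators 5 rose and 2 fell. Mxd4, a MYC antagonist, fell by 2.29 on the log2 scale (SE 0.20), Mdm2, which binds free ribosomal proteins and restrains p53, rose by 1.88 (SE 0.24), and Ddit4, an inhibitor of mTORC1, fell by 1.11 (SE 0.17).

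**Figure D2:**
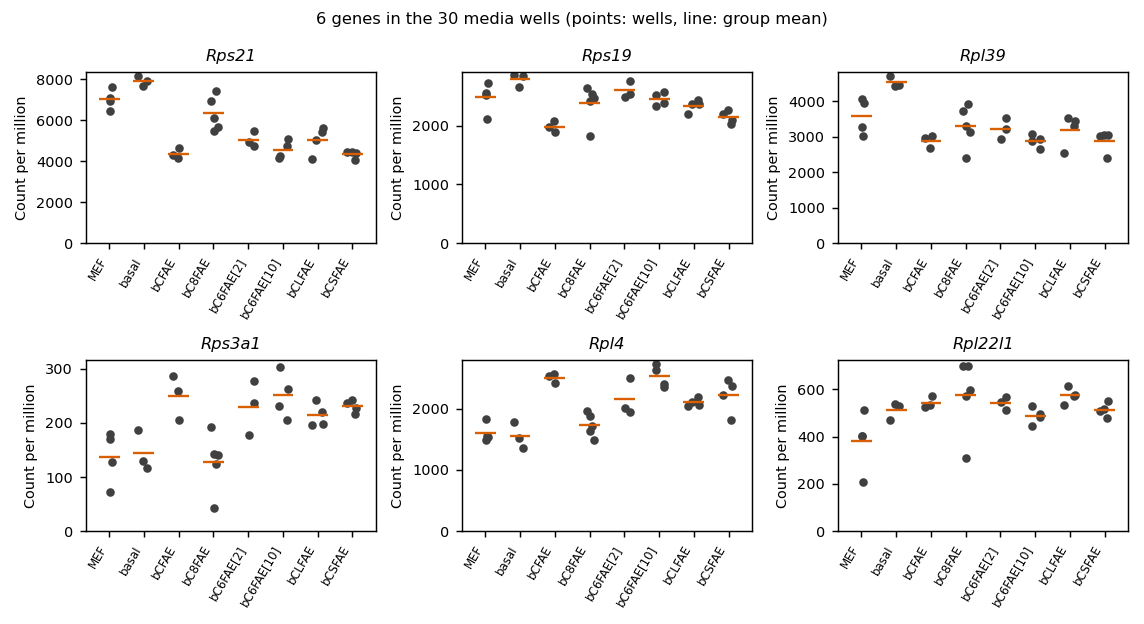
Levels of 6 ribosomal protein genes (CPM, vertical axes from 0) in the 8 groups of media wells. Points are wells and orange lines are group means. Rps21, Rps19 and Rpl39 are lower in bCFAE than in basal, and Rps3a1 and Rpl4 are higher.

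The other media comparisons called few members. In basal against MEF 0 of 80 were called (0.687% of all genes were, 0.372% higher and 0.315% lower), 17 had an unadjusted p under 0.05, all higher in basal, and DESeq2 called 1. In bC8FAE against MEF 2 rose and 2 fell, against 32.1% of all genes called, 15.2% higher and 16.9% lower. The split moved with the method: DESeq2 called 1 higher and 6 lower, the library total 4 higher and 1 lower, and no filter 5 higher and 0 lower. Rpl22l1, a paralogue of Rpl22, was at 209, 402, 403 and 514 CPM in MEF and at 310, 573, 596, 699 and 701 CPM in bC8FAE, a log2 fold change of 0.52 (SE 0.15, adjusted p = 0.00605), with overlap through bC8FAE well 4. Rpl27a gave -0.35 (SE 0.11) and Rplp0, the base of the stalk, -0.28 (SE 0.11). The Rplp0 call was lost when scaled by the library total (adjusted p = 0.056) or by TMM without the members (0.0551), with no filter (0.363), and without any 1 of bC8FAE wells 1 to 4 or MEF wells 1, 2 or 4 (0.0514 to 0.147). The Rpl27a call was lost with no filter (adjusted p = 0.107) and without MEF well 1 (0.0773). Without bC8FAE well 4 10 rose and 1 fell, and without MEF well 3 1 rose and 7 fell, so the count rests on these wells. Without MEF well 2 or well 4 it was 1 and 1.

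The comparisons with bCFAE share its 3 wells and are given side by side. bC8FAE against bCFAE called 2 members higher and 2 lower (11.1% of all genes called, 5.58% higher and 5.5% lower). Among them were Rps21 (0.56, SE 0.14), Rpl4 (-0.51, SE 0.12) and Rps3a1 (-0.82, SE 0.18), in log2 fold change. Without bC8FAE well 4, 16 were higher and 2 lower, and without that well and MEF well 3, 28 were higher and 2 lower. bC6FAE[2] called 2 higher (8.58% of all genes called, 5.03% higher and 3.55% lower), Rps14 (0.51, SE 0.15) and Rps19 (0.48, SE 0.14), both of the 40S head and platform. This became 28 higher without the 2 media wells of lowest total, neither of which is in the groups compared. The members' median log2 fold change was 0.25 with those 2 wells in the fit and 0.24 without them. All media wells share 1 fit and so 1 estimate of each gene's spread, and the cause of the change in calls was not tested. The count of bC6FAE[2] calls became 0 without bC6FAE[2] well 1 or 3 or bCFAE well 3, and 1 without bCFAE well 1 or 2. bC6FAE[10] called 0 (13.6% of all genes called, 7.59% higher and 6.06% lower), with 8 at an unadjusted p under 0.05, all higher, 4 by DESeq2 and 14 higher without those 2 wells. bCLFAE called 0 (6.5% of all genes, 3.21% higher and 3.29% lower), with 2 at an unadjusted p under 0.05, 0 by DESeq2 and 4 higher without those 2 wells. bCSFAE called 0 (6.1% of all genes, 3.18% higher and 2.92% lower), with 0 at an unadjusted p under 0.05 and 0 by DESeq2.

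In the wells with an inhibitor of mTOR, or of both PI3K and mTOR, 32 of the 80 genes rose and 6 fell. The background was 20.2% of all genes called, 10.8% higher and 9.41% lower. The class has 6 wells: PF_04979064, PI_103 (hydrochloride) and GNE_317 on plate 1, CC_115 and its hydrochloride on plate 2, and BEZ235 (tosylate) on plate 3. The 216 other screening wells of the 3 plates were the reference, with a plate term. The members' median log2 fold change was 0.21, against 0.00 over all genes, and 20 of 47 large and 12 of 33 small subunit members rose. The share of counts in the 80 genes was 24.0% to 29.2% in the plate 1 wells, against a plate median of 24.4%. It was 19.9% and 20.2% in the plate 2 wells (plate median 21.0%) and 21.0% in BEZ235 (plate median 20.2%). The summed share was thus not higher in every well of the class. Leaving out 1 well at a time gave 21 to 33 higher and 1 to 6 lower. The fewest calls in all were without BEZ235, with 23 higher and 2 lower. With no filter on low counts 24 rose and 2 fell, and with TMM without the members 39 rose and 4 fell.

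Rpl36a, a 60S protein near the exit site for transfer RNA, was at 1467, 551 and 1165 CPM in PF_04979064, PI_103 and GNE_317 (plate 1 median 477 CPM), at 356 and 447 CPM in the CC_115 wells (plate 2 median 355 CPM) and at 1111 CPM in BEZ235 (plate 3 median 340 CPM). All 6 wells were above the median of their plate, CC_115 only just, and the log2 fold change was 0.96 (SE 0.14, adjusted p = 1.09e-08). Rpl4 was at 4742, 2878 and 4349 CPM on plate 1 (median 1969 CPM), at 3575 and 4028 CPM on plate 2 (median 2244 CPM) and at 3868 CPM on plate 3 (median 1769 CPM). It was high in all 6 wells (log2 fold change 0.86, SE 0.12) and was the only member called in the CC_115 wells alone. Rpl23a, which binds the signal recognition particle at the exit site, was at 4105, 3258 and 5730 CPM on plate 1 (median 1888 CPM), at 2948 and 3342 CPM on plate 2 (median 2112 CPM) and at 4236 CPM on plate 3 (median 2048 CPM). Its log2 fold change was 0.88 (SE 0.13). Rps3a1 (0.95, SE 0.18), Rps28 (0.93, SE 0.16), Rps7 (0.76, SE 0.10), Rpl23 (0.70, SE 0.12), Rpl27 (0.60, SE 0.11), Rps3a2 (0.59, SE 0.17) and Rpl10 (0.54, SE 0.13) completed the 10 largest rises. On plate 2 alone Rps7 and Rpl27 were at -0.0327 and -0.0322 and Rpl23 at 0.19, in log2 fold change. The Rps3a2 call was lost without GNE_317 (0.37, adjusted p = 0.184) and the Rpl10 call without BEZ235 (0.38, adjusted p = 0.0521). Rpl5 and Rpl11, which bind MDM2 when free and were picked here for that role, gave 0.40 (SE 0.08) and 0.31 (SE 0.12).

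The plates differed in how many members were called. Plate 1 alone called 24 higher and 0 lower (3.07% of all genes, 2.22% higher and 0.853% lower), with a median of 0.33. Plate 2 alone, with CC_115 in both wells, called 1 higher and 0 lower (1.57% of all genes, 1.11% higher and 0.461% lower), with a median of -0.08. The difference of the class effect between plates 1 and 2, tested as an interaction, was called for 0 of 80 members (0.0249% of all genes) by edgeR, and no other tool was run on it. The 2 plates hold different compounds, so plate and compound cannot be told apart. Over the whole class, of 27 translation factors and TOP genes 17 rose and 1 fell. The rises included Npm1 (1.197, SE 0.15), Eef1a1 (1.197, SE 0.19), the factor that brings transfer RNA, and Eif4b (1.04, SE 0.14). Of 46 biogenesis factors 12 rose and 0 fell. Of 66 mitochondrial ribosomal proteins 10 rose and 7 fell, with a median of -0.05, against 10.8% of all genes higher and 9.41% lower. Among the 36 members with a pyrimidine run at the start 14 rose and 4 fell, with a median of 0.21. Among the 23 without one 8 rose and 2 fell, with a median of 0.17. Of 16 regulators 3 rose and 3 fell, Ddit4 among the latter by 0.85 on the log2 scale (SE 0.17).

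**Figure D3:**
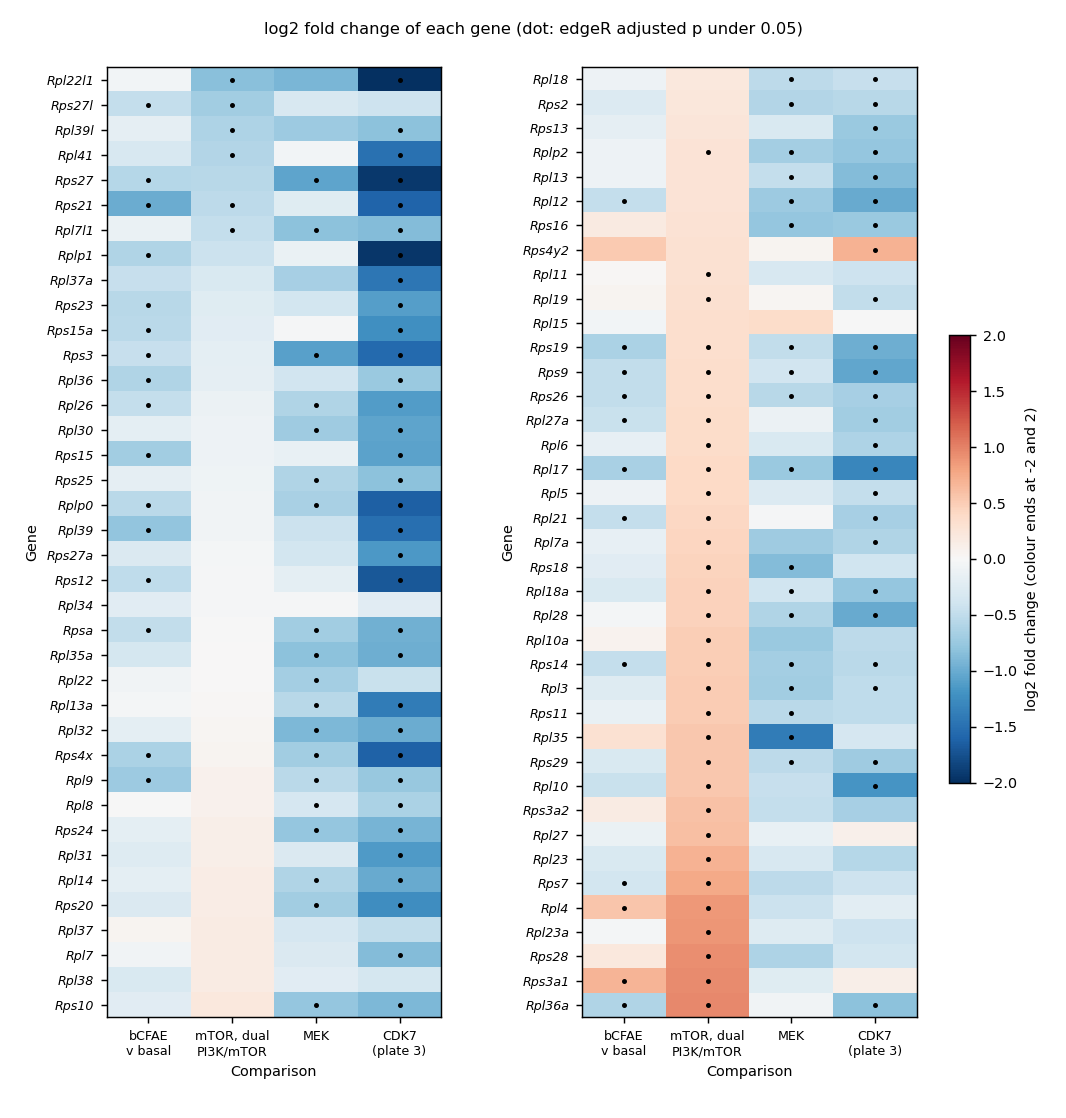
log2 fold change (colour, ending at -2 and 2) of 77 of the 80 genes in 4 comparisons, ordered by the mTOR class and split over both panels; dots mark an edgeR adjusted p under 0.05. Of all 80, 32 rose and 6 fell in the mTOR class, 38 fell in the MEK class, and 60 fell and 1 rose in the 2 CDK7 wells of plate 3.

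The members that fell with mTOR inhibitors were the 4 protein-coding paralogues whose names end in l or l1, Rpl22l1, Rps27l, Rpl39l and Rpl7l1, together with Rpl41 (-0.58, SE 0.21) and Rps21 (-0.52, SE 0.20). The 2 pseudogene copies in the set did not fall: Rps3a2 was called higher and Rps4y2 gave 0.30 (SE 0.13, adjusted p = 0.083), above its plate median in 6 of 6 wells. Rps3a2 shares 90.2% of its 50-base stretches with other transcripts, and its partner Rps3a1 was above its plate median in 6 of 6 wells. The part of shared reads in the Rps3a2 value was not tested. The Rps21 call was lost with DESeq2 (adjusted p = 0.0726) and without any 1 of 5 wells (PF_04979064, PI_103, CC_115, its hydrochloride or BEZ235), with adjusted p of 0.0672 to 0.118. The Rpl41 call was lost without PF_04979064 (adjusted p = 0.175), CC_115 hydrochloride (0.0689) or BEZ235 (0.172). With no filter on low counts the edgeR calls of Rpl22l1, Rpl39l, Rpl41 and Rps21 were all lost (adjusted p of 0.0591 to 0.0821). With TMM without the members those of Rpl39l (adjusted p = 0.0528) and Rps21 (0.0742) were lost. Rps27l, a 40S paralogue of Rps27 and a p53 target, was at 774, 775 and 821 CPM on plate 1 (median 1256 CPM), at 829 and 659 CPM on plate 2 (median 1195 CPM) and at 774 CPM on plate 3 (median 1235 CPM). All 6 wells were low by a similar amount, with a log2 fold change of -0.70 (SE 0.15, adjusted p = 0.000212). Rps27 itself was at 2489, 11083 and 6882 CPM on plate 1 (median 9948 CPM), at 6377 and 5011 CPM on plate 2 (median 7332 CPM) and at 2527 CPM on plate 3 (median 7209 CPM). It was lower in 5 of 6 wells but scattered widely (log2 fold change -0.55, SE 0.22, adjusted p = 0.0603), and the test of the paralogue against its partner is given with the ratios.

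Rpl22l1, which can replace Rpl22 in the ribosome and whose messenger Rpl22 represses, was at 124, 609 and 468 CPM on plate 1 (median 684 CPM), at 377 and 348 CPM on plate 2 (median 577 CPM) and at 94.4 CPM on plate 3 (median 545 CPM). All 6 wells were below the median of their plate, PF_04979064 and BEZ235 by far the most. The log2 fold change was -0.83 (SE 0.29, adjusted p = 0.0248), and the call was lost without PF_04979064 (adjusted p = 0.125) or BEZ235 (adjusted p = 0.146). Rpl22 lay above its plate median in 3 wells and below it in 3 (log2 fold change 0.01, SE 0.14). Rpl7l1, an Rpl7-like protein of 60S assembly, was at 31.0, 67.9 and 50.8 CPM on plate 1 (median 81.2 CPM), at 74.0 and 72.5 CPM on plate 2 (median 87.6 CPM) and at 72.4 CPM on plate 3 (median 101 CPM). It was low in all 6 wells (log2 fold change -0.48, SE 0.14, adjusted p = 0.00838), and without PF_04979064 the adjusted p was 0.0533. Rpl39l, best known from the testis, was low in 5 of 6 wells, at 31.5 to 90.2 CPM (log2 fold change -0.61, SE 0.22, adjusted p = 0.0378). Its call was lost without any 1 of 5 of the wells (GNE_317, PF_04979064, PI_103, CC_115 hydrochloride, BEZ235), with adjusted p of 0.0625 to 0.157.

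The ratio of each of the 4 protein-coding paralogues to the gene it copies was compared by permutation of wells within plates. This gave 12 tests over 3 classes with Benjamini-Hochberg adjustment, and the pairs of Rps3a2 and Rps4y2 were not tested. These tests were not among those planned. All 4 paralogues had been called lower in the same 6 mTOR class wells, so there the ratios are not independent of those calls. In the mTOR class the log2 ratio was lower by 1.02 for Rpl22l1 to Rpl22 (SD 1.02 over 6 wells, two-sided permutation p = 0.00124, adjusted 0.00496). It was lower by 0.74 for Rpl7l1 to Rpl7 (SD 0.55, permutation p = 0.0001, adjusted 0.0012) and by 0.59 for Rpl39l to Rpl39 (SD 0.81, permutation p = 0.00505, adjusted 0.0101). For Rps27l to Rps27 the difference was -0.03 (SD 0.80, permutation p = 0.855), within the spread between wells. In the 2 CDK7 wells Rpl22l1 to Rpl22 was lower by 2.18 and Rps27l to Rps27 higher by 1.48 (exact permutation tests, adjusted p = 0.00870 and 0.00496). The unadjusted exact permutation p for Rps27l to Rps27, 0.000966, is the smallest that 2 class wells beside 44 others allow. In the MEK wells Rps27l to Rps27 was higher by 0.79 (exact permutation test, adjusted p = 0.0101). Rps27l itself lay below its plate median in both CDK7 wells and in 2 of the 3 MEK wells. Rps27 lay below it in all of these wells, so the higher ratios do not mean that Rps27l rose. Across all compound wells these 4 paralogues stayed below their partners, with exceptions for Rpl22l1: its median was 68.1% of Rpl22 on plate 1, 53.5% on plate 2 and 40.0% on plate 3, and it reached 124% in the shallow Ro_5126766 well. Rpl22l1 ranged down to 3.67% of Rpl22 in LDC4297, 8.37% in APTO_253 and 10.8% in NT157, wells named after their values were seen. In the media wells the median was 37.3% for Rpl22l1, 16.6% for Rps27l, 4.81% for Rpl7l1 and 2.93% for Rpl39l. Per kb of transcript Rpl22l1 was at 937 CPM and Rpl22 at 676 CPM, so the order of that pair reverses per length, while Rps27l (2447) stayed under Rps27 (20849).

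**Figure D4:**
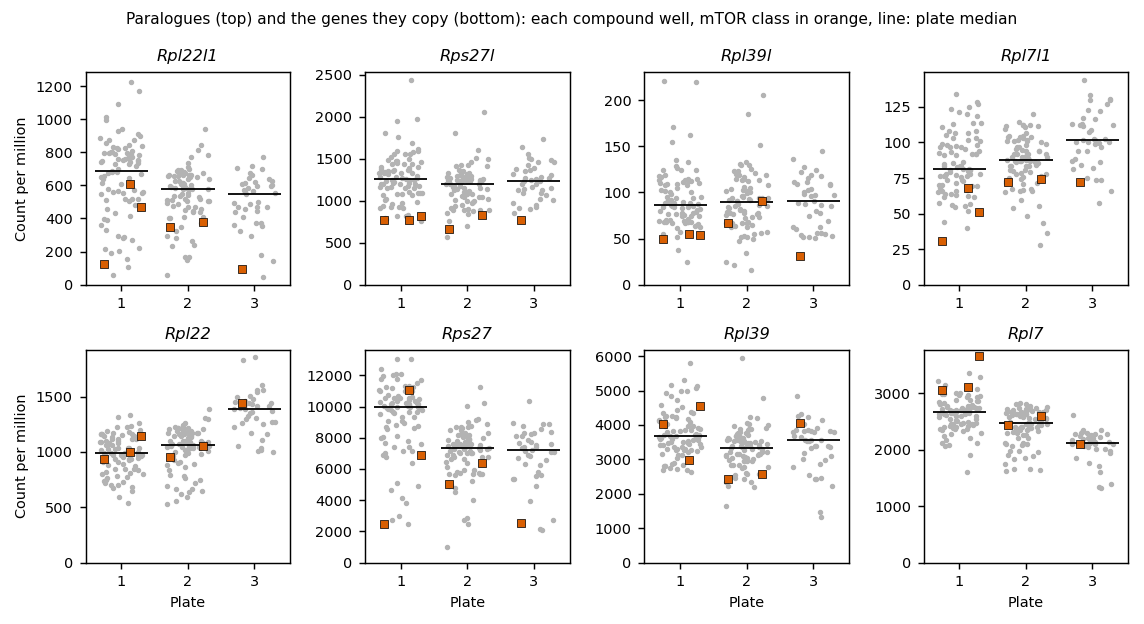
Levels (CPM, vertical axes from 0) of 4 paralogues (top) and the genes they copy (bottom) in each compound well of the 3 plates; orange squares are the 6 mTOR class wells and lines are plate medians. Rpl22l1, Rps27l and Rpl7l1 lie below the plate median in all 6 mTOR class wells, whereas Rpl22 lies on both sides of it.

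With MEK inhibitors, all on plate 1, 38 of the 80 genes fell and 0 rose, against 22.4% of all genes called, 12% higher and 10.4% lower. The members' median log2 fold change was -0.51, against -0.05 over all genes, and 77 of the 80 values were negative. The class has 3 wells, GDC_0623, trametinib (DMSO solvate) and Ro_5126766, which inhibits RAF and MEK, against 87 other wells. The 3 wells were unlike. The share of counts in the 80 genes was 12.6% in trametinib (95% Wilson interval 12.5% to 12.7%) and 17.1% in GDC_0623 (17.0% to 17.2%), the lowest 2 of 90 wells. In Ro_5126766 it was 27.5%, rank 81 of 90 from the lowest, in a well of only 45416 counts. Against the plate medians 71 members were below in trametinib, 72 in GDC_0623 and 46 in Ro_5126766. The count of members lower was 55 without Ro_5126766, 21 without GDC_0623 and 8 without trametinib, so it rests mostly on trametinib.

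Rps3, a 40S protein at the entry of the messenger RNA that also has a role in DNA repair, was at 1339 CPM in trametinib, 1657 CPM in GDC_0623 and 2158 CPM in Ro_5126766, against a plate median of 3365 CPM. All 3 wells were low, with a log2 fold change of -1.08 (SE 0.19, adjusted p = 2.52e-06). Rps10, of the 40S head, was at 1784, 2417 and 2686 CPM in the same order, against a median of 3640 CPM (log2 fold change -0.78, SE 0.14, adjusted p = 8.01e-06). Rpl32 was at 4250, 7048 and 4690 CPM against a median of 9320 CPM (log2 fold change -0.89, SE 0.19). Rpl35, whose protein sits near the exit of the tunnel, gave the largest fold change, -1.39 (SE 0.40, adjusted p = 0.00699), at 20.1, 27.1 and 0 CPM against a median of 50.4 CPM. The value of 0 says little, because in that well 3 counts, the limit that a count of 0 allows, would be 66.1 CPM. The other 6 of the 10 largest falls were Rps27 (-1.05), Rps18 (-0.86), Rpl7l1 (-0.83), Rpl35a (-0.82), Rps24 (-0.78) and Rps16 (-0.77), in log2 fold change. Without trametinib, Rpl35, Rpl35a, Rpl7l1, Rps16, Rps18, Rps24 and Rps27 kept a negative value but missed the threshold, with adjusted p of 0.119 to 0.302. Rpl35a also missed it without either of the other wells.

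Of 41 biogenesis factors in the MEK class 11 fell and 1 rose, with Dkc1 (-3.18, SE 1.00), the pseudouridine synthase of the nucleolus, Nat10 (-1.84, SE 0.46) and Polr1a (-1.57, SE 0.32), the largest subunit of RNA polymerase I. Of 27 translation factors and TOP genes 10 fell and 0 rose, among them Pabpc1 (-1.12, SE 0.18). Mitochondrial ribosomal proteins stayed nearer 0, with 3 of 64 lower, 1 higher and a median of -0.08. Of 13 regulators 2 rose and 1 fell, with a median of 0.07, and Mxd4 rose by 1.53 on the log2 scale (SE 0.26). Members with and without a pyrimidine run at the start gave 17 of 36 and 10 of 23 lower.

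The largest fall of the 80 genes came in the 2 wells with a CDK7 inhibitor on plate 3, LDC4297 and THZ1 (hydrochloride). Against 44 other wells, 60 members fell and 1 rose, with 32.1% of all genes called, 16.4% higher and 15.7% lower. The members' median log2 fold change was -0.82, against 0.00 over all genes. The 2 wells held the lowest shares of all kept compound wells of the 3 plates, 10.6% (95% Wilson interval 10.6% to 10.7%) and 11.4% (11.3% to 11.5%), at totals of 500691 and 577615 counts. Mitochondrially encoded genes took 1.89% of counts in LDC4297 and 1.07% in THZ1, against a plate median of 1.08%. With LDC4297 left out 29 members fell, and with THZ1 left out 44 fell, the lone well being taken to vary like the others.

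Rplp0, the stalk base often used as a reference gene, was at 2393 CPM in LDC4297 and 2988 CPM in THZ1, against a plate median of 7366 CPM (log2 fold change -1.63, SE 0.22, adjusted p = 1.49e-07). Rplp1, its partner in the stalk, was at 3146 and 4437 CPM against 12632 CPM (-1.95, SE 0.32). Rps12 was at 2259 and 2062 CPM against 6091 CPM (-1.70, SE 0.25), and in all these genes both wells were low together. Rps27 (-1.93, SE 0.35), Rps4x (-1.62, SE 0.18), Rps21 (-1.60, SE 0.31), Rps3 (-1.56, SE 0.20) and Rpl39 (-1.51, SE 0.24) were also among the 10 largest falls. Rpl22l1 fell the most, to 45.9 CPM in LDC4297 and 180 CPM in THZ1 from a plate median of 545 CPM (-2.40, SE 0.46, adjusted p = 7.94e-05). Without LDC4297 its adjusted p was 0.0545. Rps4y2, annotated as a transcribed pseudogene, was the member that rose, at 184 and 171 CPM (0.70, SE 0.22, adjusted p = 0.0134), and the call was lost without either well (adjusted p = 0.221 and 0.0697). In contrast to the cytosolic set, 18 of 67 mitochondrial ribosomal proteins rose and 3 fell, such as Mrps30 (1.33, SE 0.25), while of 47 biogenesis factors 6 rose and 4 fell. Of 27 translation factors and TOP genes 3 rose and 7 fell, with Gnb2l1, the 40S-bound protein RACK1, at -1.51 (SE 0.21) and Eef2 at -0.88 (SE 0.18).

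The other CDK inhibitors did not share this. On plate 2, CDK9_IN_1, NU2058, NVP_LCQ195 and Purvalanol_B had shares of 20.5% to 22.8%, and 0 of 80 members were called (0% of all genes), with 0 at an unadjusted p under 0.05. The test of the difference of the class effect, plate 3 minus plate 2, called 51 members lower and 1 higher, with 21.7% of all genes called, 10.2% higher and 11.5% lower. Compounds and plates differ together, so the share of each in the difference cannot be told apart. All 6 wells in 1 fit called 0 members (1.67% of all genes, 1.53% higher and 0.14% lower), with 13 at an unadjusted p under 0.05, all lower, and 0 by DESeq2. Leaving out 1 plate 2 well at a time gave 0 to 4 lower.

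Inhibitors of PI3K or AKT without mTOR called 0 members in 15 wells, as they called 0% of all genes. DESeq2 also called 0 members, and 0 had an unadjusted p under 0.05. The members' median log2 fold change was 0.00. Ipatasertib on plate 2 and GDC_0068 on plate 3, names of 1 compound, had shares of 20.5% and 19.1%. The difference between this class and the mTOR class was not tested.

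Among all compound wells, those with the lowest share on plate 1 were trametinib, GDC_0623, MCB_613 (17.6%), NMS_1286937 (18.4%) and APTO_253 (18.7%). The highest were SU14813 (32.7%), GNE_317 (29.2%), BX517 (28.9%), toceranib (28.2%) and BAY_61_3606 (28.1%). A high share came about in different ways. In GNE_317 66 of 80 members lay above the plate median, with a median log2 ratio of 0.45, and in BX517 only 54, with a median of 0.12. On plate 2 the lowest were NT157 (12.4%), FIIN_2 (13.8%), DCC_2618 (14.9%), BMS_3 (15.1%) and doramapimod (15.4%), and the highest IRAK_inhibitor_6 (28.2%), GNF_7 (26.2%), TA_01 (25.1%), Indirubin_3'_monoxime (25.0%) and CC_401 (23.7%). NT157 had 68 members below the plate median and a median log2 ratio of -0.51, against -0.17 for all genes. On plate 3 LDC4297 and THZ1 were followed by rigosertib (13.4%), HLM006474 (16.1%) and crizotinib (16.1%), in which 78 of 80 members lay below the plate median. The highest were Vps34_PIK_III (23.0%), regorafenib (22.6%), A_419259 (22.4%), afuresertib (22.4%) and GDC_0941 (21.8%). Each compound is 1 well, so these have no replicate check. Wells of low share tended to have a high mitochondrial share, with Spearman's rho of -0.50 over 90 wells of plate 1, -0.46 over 86 of plate 2 and -0.34 over 41 of plate 3. With the total count rho was 0.10, 0.17 and -0.16. These are descriptions of wells that share a library, and the part of RNA quality in the share was not tested. In the 5 wells of lowest share the mitochondrial share was 0.773% to 1.41% on plate 1 (plate median 0.996%), 1.22% to 2.33% on plate 2 (0.982%) and 1.07% to 1.89% on plate 3 (1.08%). GDC_0623, APTO_253 and THZ1 were below the median of their plate.

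Single members differed between plates to unequal degrees. Of the 80, 24 had plate medians at least 1.5-fold apart (30.0%, against 15.6% of 7578 genes), and 3 at least 2-fold. Rpl35 was at 50.4, 114.8 and 72.6 CPM on plates 1, 2 and 3 (2.28-fold from lowest to highest), Rpl15 at 33.0, 68.4 and 49.0 CPM (2.07-fold) and Rpl7a at 124, 137 and 249 CPM (2.02-fold). Abundant members differed too: Rpl41 was at 16117, 11825 and 9241 CPM and Rpl37a at 7146, 4871 and 3894 CPM, both falling from plate 1 to plate 3. Plate 1 held the highest median for 50 members, plate 3 for 14. The steadiest were Rpl13 (4696, 4695 and 4667 CPM), Rpl39l (86.5, 89.03 and 90.4 CPM) and Rps25 (3390, 3292 and 3238 CPM). Each plate is 1 library with its own compounds, so these differences have no replicate and no test.

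Members rose and fell together across wells of a plate. The correlation of a member's log2(CPM + 1) with the mean of the other 79 had a median Pearson r of 0.55 over 90 wells of plate 1, 0.71 over 86 of plate 2 and 0.71 over 41 of plate 3. Over the 30 media wells it was 0.69, and 0.46 without the 2 wells of lowest total. The closest to the rest were Rps13 (0.84, 0.91 and 0.92 on plates 1, 2 and 3), Rps10 (0.85, 0.91 and 0.91) and Rpl32 (0.82, 0.91 and 0.89). The least close were Rps4y2 (-0.12, -0.09 and -0.33), Rpl7l1 (-0.04, -0.03 and 0.38) and Rpl27 (0.19, -0.01 and 0.01). Wells share library and scale, and the part of depth was not tested, so these values are descriptions without a test.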

How the data were processed

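RNA of mouse embryonic fibroblasts was counted per gene in wells of 3 plates. The authors deposited whole-number counts per gene and well, in 1 table of 274 columns. STAR and the mm10 build are named per the submitters' processing notes. Nothing read here names the counting tool, its annotation, its strand setting or any molecular identifiers. Intervals therefore cover counting error at most, and they may be too narrow, since they treat each count as a separate molecule. Of the columns, 17 were not used, since their names did not give a single plate or group, and 4 repeat columns were identical to their namesakes and counted once. Of 221 compound wells, 4 with under 10% of the median total of their plate were left out.

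Counts were tested with edgeR 4.0.16 (quasi-likelihood test, scaled by TMM, low genes removed by filterByExpr at a minimum count of 10) in R 4.3.3, with Benjamini-Hochberg adjustment over all genes and a threshold of 0.05. All 30 media wells shared 1 fit, and classes of compounds were fitted with a plate term. Classes were written from general knowledge of the compounds' targets. SE is the absolute log2 fold change divided by the square root of F. Correlations used log2(CPM + 1). Paralogue ratios were tested by permuting wells within plates (100000 resamples, or exactly for classes on a single plate). Start sites and exons came from RefSeq (GRCm38.p6) and GENCODE. The alternatives were DESeq2 1.42.0, other scalings, no filter, a replicate block, single plates and leaving out wells. The fit was tested on simulated counts with 200 genes changed 4-fold. Of these, 91.5% were recovered among 6673 genes for bC8FAE against bCFAE, with 7 false calls. For the MEK class 81% were recovered among 6099 genes, with 10 false calls. Smaller changes, such as most of those of the members, were not simulated, so these rates do not speak for them.

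Named members were, per comparison, up to 10 called with the largest rise and 10 with the largest fall, all paralogues with their partners, those with the largest and smallest plate ratios and those most and least correlated with the rest. Named compounds were the 5 wells at either end of the share on each plate. Values of 3 members are not reported here by name, though the counts include them. The members and lists were chosen with earlier results of these data known.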

Additional observations from a re-analysis of the deposited data

Results flagged for a closer look

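The share of counts in the 80 genes was 13.84% in bC8FAE well 4 and 14.71% in MEF well 3, each far below the other wells of its group. Both had the lowest totals of the media wells and the highest mitochondrial shares, whose part in the value was not tested. In bCLFAE well 4 the share was 18.91%, apart from the other 3 wells at 20.4% to 20.7%. Chance alone sets a well apart in about 1 in 20 groups of this size.

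The effect of the CDK class differed between plates 3 and 2 for 52 members (edgeR interaction test, adjusted p under 0.05), 51 of them lower on plate 3. The 2 plates hold different compounds, so compound and plate cannot be told apart.

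The wells named nocell held member counts as well. There were 642 among 4280 counts in nocell well 2 (15.0%) and 3272 among 25308 in nocell well 3 (12.9%). These wells enter no comparison.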

How the results depend on the processing

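Counts of members called are given here where they differed by more than 1.5 times from those in the report; the cause was not tested. With DESeq2, basal against MEF called 1, bC8FAE against MEF 7, bC8FAE against bCFAE 7, bC6FAE[10] 4 and bC6FAE[2] 6. With no filter on low counts, bCFAE against basal called 17 and bC6FAE[2] 1. Scaling by the library total called 1 in bC6FAE[10] and 1 in the CDK class. Without the 2 media wells of lowest total, bC8FAE against MEF called 12, bC8FAE against bCFAE 30, bC6FAE[10] 14, bC6FAE[2] 28 and bCLFAE 4. The mTOR class called 24 on plate 1 alone and 1 on plate 2 alone, and the CDK class 61 on plate 3 alone. Rps7 and Rpl27, which rose in the mTOR class, were at -0.0327 and -0.0322 (log2 fold change) on plate 2 alone. Leaving out 1 well at a time gave 24 to 29 calls for bCFAE against basal, 2 to 11 for bC8FAE against MEF, 3 to 18 for bC8FAE against bCFAE and 0 to 2 for bC6FAE[2]. It gave 0 for basal against MEF, bC6FAE[10], bCLFAE and bCSFAE, 25 to 37 for the mTOR class, 8 to 55 for the MEK class, 0 to 4 for the CDK class and 29 to 44 for its plate 3 wells, the last added after the data were seen, as were those of the mTOR and CDK classes. Of the values of named members under these settings, 470 kept their direction and side of the threshold, 96 missed the threshold with the same direction and 2 changed sign. The library total moved the median of all genes to 0.14 in bCFAE against basal, with the members at -0.13, and DESeq2 moved it to 0.52 in the MEK class, with the members at -0.43.

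Well numbers are shared between media. Deviations from the group mean of wells with the same number had a median correlation of 0.01 (from -0.14 to 0.17), and 12 of 30 wells were closest to their own number, so the numbers were not taken as pairs. With the replicate block, bC6FAE[10] called 1 member, bC6FAE[2] 3 and bCFAE against basal 30. Shallow wells limit low members most: in the well of 45416 counts, a count of 0 allows up to 66.1 CPM.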
